A study of Homo sapiens with 6 samples.

Results

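Long non-coding RNAs (lncRNAs) that carry small RNAs in their introns, together with a few lncRNAs named singly for their own roles, were followed in MDA-MB-231 cells, a triple negative breast cancer cell line. The set was taken by name: every probe whose accession matched a RefSeq symbol beginning with SNHG, or beginning with MIR and ending in HG, or one of GAS5, MALAT1, NEAT1, H19, MEG3, TUG1, HOTAIR, PVT1, DANCR, CYTOR, LINC-PINT, NORAD and EPB41L4A-AS1. RefSeq lists 129 such symbols. The array held probes for 64 of them, 167 probes in all, and 40 genes with 114 probes passed the filter on dim probes, out of 11974 named genes tested. The 40 tested genes were 19 snoRNA hosts, 13 miRNA hosts and 8 structural or regulatory lncRNAs.

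Cells of this one line were reverse transfected with 30 nM of a precursor of hsa-miR-205-5p, with one of hsa-miR-214-3p, or with a scrambled negative control labelled SCR, and total RNA was taken at 72 h. Each group had 2 one-colour Agilent arrays, 6 in all, so the control went through the transfection too. The labels do not say whether the 2 replicates of a group were separate cultures, so the p-values measure the spread between these samples, which may be technical. The arrays measured a pool of cells, in which fewer cells with a transcript and less RNA per cell cannot be told apart.

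A host gene of this kind is transcribed as a long RNA. Splicing releases introns from which box C/D or box H/ACA small nucleolar RNAs (snoRNAs) are trimmed, and the joined exons leave the nucleus as a lncRNA with little coding potential. snoRNAs guide the methylation and pseudouridylation of ribosomal RNA, and many of their hosts begin with a run of pyrimidines like that of ribosomal protein mRNAs. Several of the spliced exon RNAs, GAS5 the best known, are translated over short reading frames and removed by nonsense-mediated decay (NMD). miRNA hosts give rise in a similar way to a hairpin that is processed to a mature miRNA, so that the array signal for a host is a signal of the host RNA and not of the small RNA.

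The mature miRNAs made from the transfected precursors are shown first because they are the agents that set the groups apart. They are followed by miRNAs encoded by the 2 miRNA hosts that were called in a comparison. For MIR3681HG both arms are shown, and for MIR503HG only miR-503-5p, so the list is a selection. Sequences are from RefSeq (GRCh38.p14), 5′ to 3′, with the seed (bases 2 to 8) in capitals. The 5 seeds shown are all different.
hsa-miR-205-5p: uCCUUCAUuccaccggagucug
hsa-miR-214-3p: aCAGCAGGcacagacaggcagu
hsa-miR-503-5p (MIR503HG): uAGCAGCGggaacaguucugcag
hsa-miR-3681-5p (MIR3681HG): uAGUGGAUgaugcacucugugc
hsa-miR-3681-3p (MIR3681HG): aCACAGUGcuucauccacuacu

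Across the arrays, 35.4% to 42.2% of the 58717 spots were well above background, and 105 to 118 of the member probes were. The miR-205-5p arrays had the fewest spots above background and the SCR arrays the most in both counts, and 1 miR-205-5p array equalled 1 miR-214-3p array in member probes. All levels below are log2 of the processed signal minus the 75th percentile of the same array, and a gene is represented by the brightest of its probes that passed the filter. Signals of different probes are not amounts that can be set against each other. The 7 markers of this mesenchymal-like line (VIM, CD44, CAV1, AXL, MSN, TGFBI and S100A4) all passed the filter, and none was called in any comparison. Of 7 markers set down as low, ESR1, PGR and KRT20 did not pass. The other 4 (CDH1, EPCAM, CLDN4 and GATA3), against their place in that list, were well above background on all 6 arrays, and CDH1 and EPCAM were called higher with miR-205-5p than in the control, by 1.96 and 2.40 on the log2 scale. Between the precursors 3 of these 4 epithelial markers were called higher with miR-205-5p, with mean levels of 0.76 against -1.39 for CDH1, 2.99 against 0.66 for EPCAM and 9.02 against 7.82 for CLDN4, and the median difference over the 4 was 1.68. Of 3 markers of other cells, only PECAM1, an endothelial surface protein, passed, well above background on 3 arrays, and it was called lower with miR-205-5p than in the control (at least 2.26-fold, not well above background with miR-205-5p). Of all genes, 4.78% were called higher and 7.99% lower with miR-205-5p than in the control. With miR-214-3p 1.09% were called higher and 2.03% lower than in the control. Between the precursors 9.18% were called higher with miR-205-5p and 11.3% lower. The part of the markers in the results below was not tested. The SCR arrays differed from each other by over 1 log2 unit for CYTOR, DANCR, PVT1, SNHG11 and SNHG18.

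**Figure D1:**
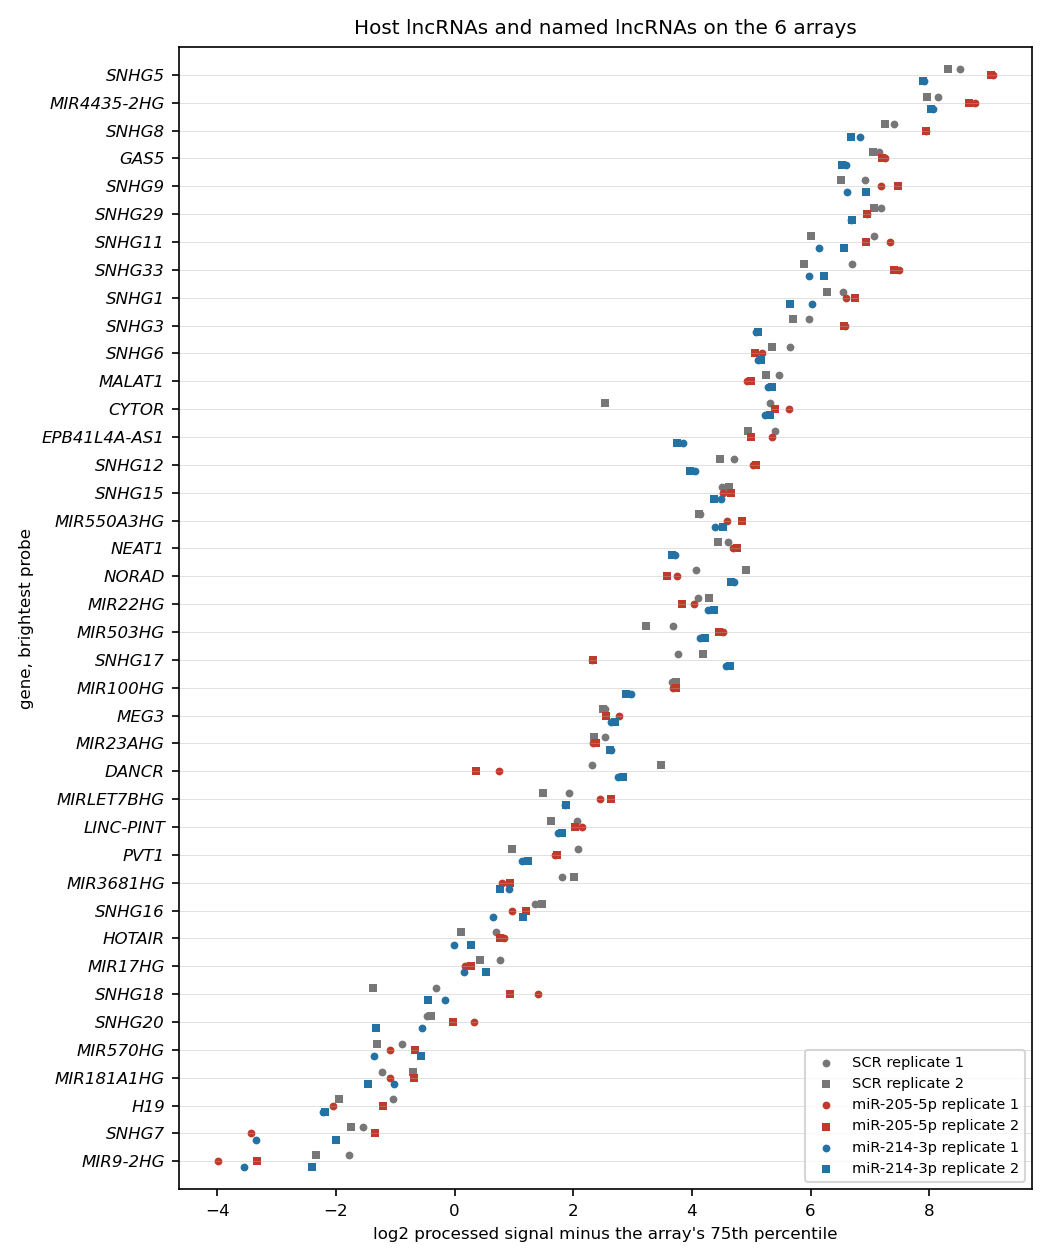
Level of each of the 40 tested genes (rows) on each of the 6 arrays, as log2 processed signal minus the array's 75th percentile (horizontal axis), with colour for the group and symbol for the replicate. For SNHG5, SNHG8, SNHG3, SNHG12, GAS5, SNHG1, NEAT1 and SNHG20 the miR-205-5p points lie right of the SCR points and the miR-214-3p points left of them. The share of all genes with that order is not given here. For SNHG17 and DANCR the miR-205-5p points lie left of all others, and 1 SCR array stands apart for CYTOR.

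A gene was called when limma's Benjamini-Hochberg adjusted p was under 0.05 over all probes tested and the difference was at least 2-fold. The comparison of the 2 precursors with each other held most of the calls. Of the 40 genes, 9 were higher with miR-205-5p than with miR-214-3p (SNHG5, SNHG8, SNHG33, SNHG3, EPB41L4A-AS1, SNHG12, SNHG18, SNHG20 and NEAT1), while 9.18% of all genes were. Another 2, SNHG17 and DANCR, were lower, while 11.3% of all genes were. All but NEAT1 were snoRNA hosts: of the 19, 8 were called higher and 2 lower, and none of the 13 miRNA hosts was called, with 3 of those at an unadjusted p under 0.05, beside 48.2% of all genes. The median log2 difference was 0.79 over snoRNA hosts, 0.27 over miRNA hosts and 0.28 over the other lncRNAs, beside 0.12 over all genes. The last 2 list medians both fell to 0.05 with median centring, where that over all genes was -0.10, and that of the miRNA hosts was 0.14 without miR-205-5p replicate 2. With each gene taken as the median of its probes, after each probe was centred on its own mean over the arrays, 6 of the 19 snoRNA hosts were called higher and 3 lower, and their median was 0.19 with 13 above 0, beside 0.07 over all genes. These medians and counts are descriptions of the lists. The shares of all genes called under settings other than the main one are not given here. The median over the snoRNA hosts was 0.70 without miR-214-3p replicate 1 and 0.72 without miR-214-3p replicate 2. The 9 higher calls needed both miR-214-3p arrays, and a fit without 1 of them leaves a single array in that group. Without either miR-205-5p array 4 were called. Without either SCR array 8 were, SNHG20 being lost at an adjusted p of 0.0608. Centring the arrays on the median instead moved the median of all genes from 0.12 to -0.10 and left 3 calls higher and 3 lower, although 14 of the 19 snoRNA hosts still lay above 0, as against 16 with the 75th percentile. Quantile normalization, normexp background correction and the authors' table each gave 5 higher and 2 lower.

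**Figure D2:**
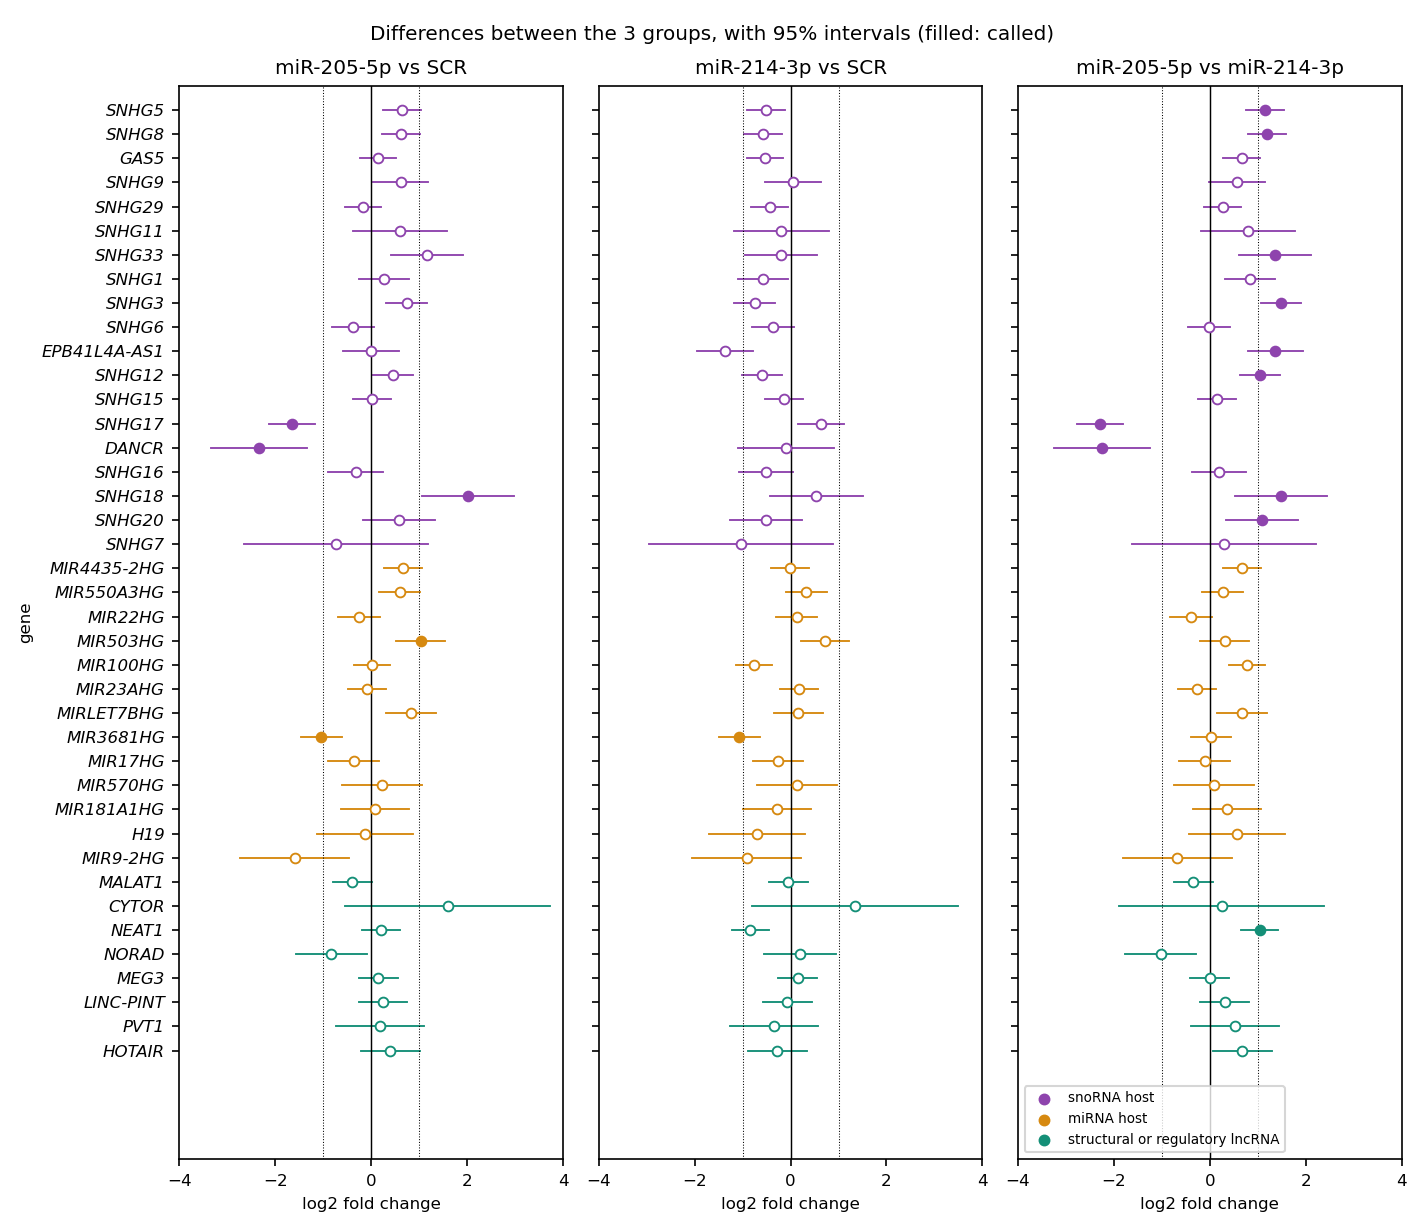
Log2 fold change (horizontal axis) with its 95% interval for each tested gene (rows) in the 3 comparisons (panels), coloured by role, filled where called and with dotted lines at a 2-fold difference. In the panel of miR-205-5p against miR-214-3p, 8 snoRNA hosts are filled to the right and 2 to the left, and no miRNA host is filled.

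SNHG5, the host of the SNORD50 snoRNAs, was at 9.08 and 9.04 on the miR-205-5p arrays, 7.91 and 7.89 on the miR-214-3p arrays and 8.51 and 8.32 on the SCR arrays. The groups did not overlap, and the control lay between the precursors. miR-205-5p exceeded miR-214-3p by 1.16 ± 0.16 (SE, n = 2 per group), or 2.23-fold, with a limma adjusted p of 0.00721. The shifts against the control were 0.64 with miR-205-5p (adjusted p = 0.0447, under 2-fold and so not called) and -0.52 with miR-214-3p (adjusted p = 0.141). SNHG5 was the member with the most probes, and all 18 lay above 0 between the precursors, from 0.69 to 1.81, with 11 called higher. All 18 also lay above 0 for miR-205-5p against SCR, and 16 lay below 0 for miR-214-3p against SCR.

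SNHG3, which hosts the SNORA73 pair, was at 6.59 and 6.56 with miR-205-5p, 5.08 and 5.11 with miR-214-3p and 5.98 and 5.70 in the control. Its difference between the precursors was 1.48 ± 0.17 (SE, n = 2), or 2.79-fold, with a limma adjusted p of 0.00520. SNHG8, the host of SNORA24, was at 7.94 and 7.95, 6.83 and 6.67, and 7.41 and 7.26 in the same order. As for SNHG3, the control arrays lay between the precursor arrays without overlap, and the difference of 1.19 ± 0.16 had an adjusted p of 0.00701. SNHG12, which carries several H/ACA snoRNAs, was at 5.03 and 5.08 with miR-205-5p, 4.05 and 3.96 with miR-214-3p and 4.72 and 4.48 in the control, a difference between precursors of 1.05 ± 0.17 (adjusted p = 0.0103). Each of these 3 genes had 1 probe. None of the 3 was called against the control in either direction.

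EPB41L4A-AS1, host of SNORA13, took another course, with the miR-205-5p arrays at 5.34 and 4.99 and the SCR arrays at 5.40 and 4.94, whereas the miR-214-3p arrays were at 3.86 and 3.74. The precursors differed by 1.37 ± 0.23 (adjusted p = 0.0121). Against SCR the miR-205-5p difference was -0.002, with a 95% interval from -0.58 to 0.58, and the miR-214-3p difference was -1.37 with an adjusted p of 0.0503, just past the limit, so that it was not called. NEAT1, the scaffold RNA of paraspeckles, was also lowest with miR-214-3p: it was at 4.69 and 4.76 with miR-205-5p, 4.60 and 4.44 in the control, and 3.71 and 3.66 with miR-214-3p. Its precursor difference was 1.04 ± 0.16 (adjusted p = 0.00928) at the brightest probe, but the other 3 probes gave 0.06 to 0.66 and none of them was called, and the median of the centred probes gave 0.52 (adjusted p = 0.0578).

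SNHG17, which hosts the SNORA71 family, moved the opposite way and was lowest with miR-205-5p. Its levels were 2.31 and 2.33 with miR-205-5p, 4.57 and 4.65 with miR-214-3p and 3.77 and 4.18 in the control, with no overlap between groups. It was 4.89-fold lower with miR-205-5p than with miR-214-3p (log2 -2.29 ± 0.19, limma adjusted p = 0.00383) and 3.15-fold lower than the control (log2 -1.66 ± 0.19, adjusted p = 0.00925). Of its 5 probes, 4 were called lower in both comparisons, from -1.60 to -1.67 against the control, and the dimmest gave 0.19 against the control. Between the precursors it was called under each of the 23 other settings that were run, whereas without miR-205-5p replicate 2 the difference from the control had an adjusted p of 0.059.

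DANCR, host of SNORA26 and known for keeping progenitor cells undifferentiated, fell the most against the control. The single probe was at 0.75 and 0.36 with miR-205-5p, 2.76 and 2.83 with miR-214-3p, and 2.31 and 3.47 in the control, so the miR-205-5p arrays lay below all others. The difference was -2.34 ± 0.40 against the control (adjusted p = 0.0189) and -2.24 ± 0.40 against miR-214-3p (adjusted p = 0.0136). The control arrays were 1 log2 unit or more apart: without SCR replicate 2 the difference from the control was -1.76 (adjusted p = 0.0237) and without SCR replicate 1 it was -2.92 (adjusted p = 0.00762). Leaving out any one of the 4 precursor arrays took the adjusted p against the control to between 0.0563 and 0.0911, and the call between the precursors was lost without miR-205-5p replicate 2 (adjusted p = 0.0667) or either miR-214-3p array (0.077 and 0.0869).

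In the comparison of miR-205-5p with the control, 3 of the 40 genes were called lower (SNHG17, DANCR and MIR3681HG), beside 7.99% of all genes, and 2 higher (SNHG18 and MIR503HG), beside 4.78% of all genes. Both shares are near those over all genes. Over the 114 probes, 9 were called lower, beside 8.06% of all probes, and 3 higher, beside 4.14%. The median log2 difference was 0.16 over the members and 0.08 over all genes, but that of the members was 0.30 without SCR replicate 1, 0.25 without miR-205-5p replicate 1, 0.07 without SCR replicate 2 and below 0 with median centring or normexp, as was that over all genes (-0.31 and -0.02). With median centring 5 genes were called lower and 1 higher, and with normexp 2 lower and 0 higher. The shares of all genes called under these 2 settings are not given here. The snoRNA hosts had a median of 0.26, which was 0.40 without SCR replicate 1 and 0.08 without SCR replicate 2. Of the 19 snoRNA hosts 12 lay above 0. With median centring 9 did and the median was -0.13, a shift that all genes shared, and with the median of the centred probes 10 did and the median was 0.02, beside 0.03 over all genes. Without miR-205-5p replicate 2 no gene of the array was called in this comparison. Without miR-205-5p replicate 1, or without either miR-214-3p array, 1 member was called lower and none higher. Without SCR replicate 1, 4 were called lower and 6 higher, and without SCR replicate 2, 2 lower and 1 higher.

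SNHG18, which hosts SNORD123, was at 1.41 and 0.94 with miR-205-5p, -0.17 and -0.45 with miR-214-3p and -0.32 and -1.37 in the control. The miR-205-5p arrays lay above all others. The rise against the control was 2.02 ± 0.39 (SE, n = 2; limma adjusted p = 0.0247), and that against miR-214-3p was 1.48 ± 0.39 (adjusted p = 0.0376). Its second probe gave 1.54 against the control, with an adjusted p of 0.064, and 1.68 against miR-214-3p, which was called. With normexp background correction the values were 0.83 and 0.62, under 2-fold and not called. Without SCR replicate 2 the rise over the control was 1.49 (adjusted p = 0.0405). Leaving out any precursor array ended both calls, with adjusted p-values of 0.0635 to 0.0981 against the control and 0.0818 to 0.173 between the precursors.

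With miR-214-3p most snoRNA hosts lay below the control, and EPB41L4A-AS1 at -1.37 (adjusted p = 0.0503) and MIR3681HG at -1.07 were more than 2-fold lower. MIR3681HG alone of the 40 was called lower, beside 2.03% of all genes, and none was called higher by limma, beside 1.09%; at an unadjusted p under 0.05 with the 2-fold limit, and by the methods' t-test, the count of higher genes was also 0. Of the 114 probes 1 was called lower, beside 1.68% of all probes, and 0 higher, beside 0.986%. The median over the 19 snoRNA hosts was -0.51, beside -0.01 over all genes. Of the 19, 16 were below 0, beside 51% of all genes, and 9 were at an unadjusted p under 0.05, beside 24.3%. Other scalings of the arrays left 16 or 17 of the 19 below 0, but with the median of the centred probes 13 were below 0 and the median was -0.31. Both precursors were compared with the same SCR arrays, so the 2 comparisons with the control are not independent of each other.

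Several other snoRNA hosts were not called. GAS5, a growth arrest transcript with many C/D snoRNAs in its introns, was at 7.26 and 7.21 with miR-205-5p, 6.61 and 6.54 with miR-214-3p and 7.15 and 7.05 in the control. The miR-214-3p arrays were the lowest, and the precursor difference of 0.66 (adjusted p = 0.0265) was under 2-fold. SNHG1, host of SNORD22 and SNORD25 to SNORD31, gave a precursor difference of 0.84 (adjusted p = 0.0325), also under 2-fold. SNHG9 (0.56), SNHG29 (0.27), SNHG15 (0.15), SNHG16 (0.19) and SNHG6 (-0.01) had adjusted p-values from 0.115 to 0.968. The 95% interval for SNHG6 ran from -0.45 to 0.43.

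Some hosts gave different answers from different probes, and a call from the brightest probe is then uncertain. SNHG33 was at 7.50 and 7.41 with miR-205-5p, 5.97 and 6.23 with miR-214-3p and 6.71 and 5.89 in the control, and its brightest probe differed by 1.35 (adjusted p = 0.0245) between the precursors. Another probe was called higher at 1.02, 2 dimmer probes were called lower at -1.53 and -1.14, and the last gave 0.19. The median of the centred probes gave 0.19 (adjusted p = 0.528). SNHG20 was at 0.33 and -0.03 with miR-205-5p, -0.54 and -1.33 with miR-214-3p and -0.46 and -0.39 in the control. It was called higher at 1.09 (adjusted p = 0.0439), with only 1 miR-214-3p array well above background, so that size is uncertain. Its 2 dimmer probes were not well above background on either miR-205-5p array and lay below 0, and the one of them that was called lower was at least 1.30-fold lower. The SNHG20 value was 0.48 with normexp and turned below 0 with the median of the centred probes, which rests on those dim probes. SNHG11 showed 0.79 at its brightest probe, not called, with 5 of 7 probes below 0 and 3 of these called lower. SNHG7 was near background, and of its 2 probes only the second was called lower with miR-205-5p, against both other groups. Neither miR-205-5p array was well above background at that probe, which puts it at 1.18-fold or more below the control and gives no fold against miR-214-3p. Over all members' probes, 22 were called higher between the precursors, beside 8.37% of all probes, and 16 lower, beside 11.5%, and the 11 higher probes of SNHG5 are among the 22.

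**Figure D3:**
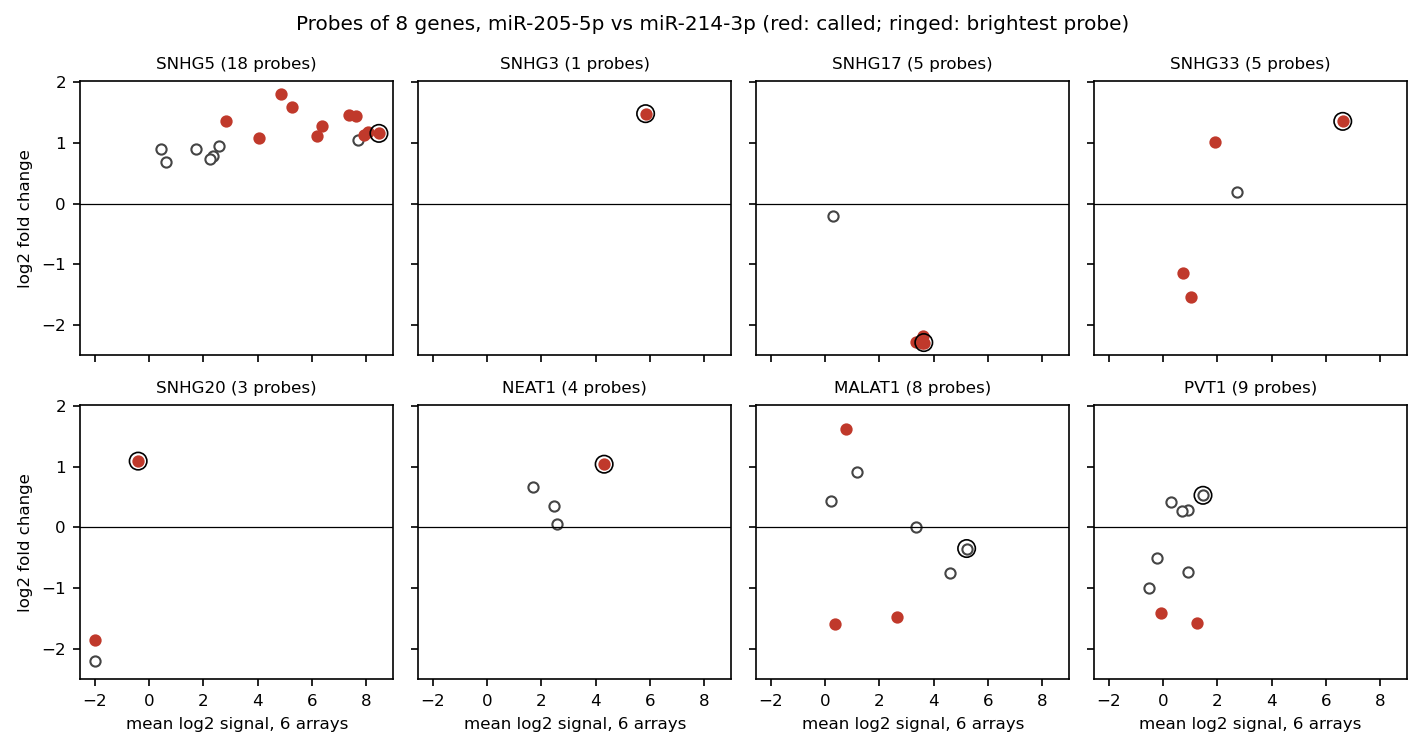
Log2 fold change of miR-205-5p over miR-214-3p (vertical axis) against the mean log2 signal over the 6 arrays (horizontal axis) for each probe of 8 genes, red where called and ringed for the brightest probe. The 18 probes of SNHG5 lie above 0 at every signal level and 4 of the 5 of SNHG17 lie together near -2, while those of SNHG33, SNHG20, MALAT1 and PVT1 fall on both sides of 0.

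The first bases of the snoRNA hosts called between the precursors are shown because these genes are known for pyrimidine starts. Each line gives 10 bases before the annotated RefSeq start and 20 from it (GRCh38.p14). Capitals mark each C followed by 4 letters that are C or T, where that begins within 5 bases of the start on the gene's strand. SNHG33 has 2 listed starts, and the first is shown.
SNHG5, chr6:85678714-85678743, minus strand: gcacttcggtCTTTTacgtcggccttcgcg
SNHG8, chr4:118278752-118278781, plus strand: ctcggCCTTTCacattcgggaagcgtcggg
SNHG12, chr1:28581854-28581883, minus strand: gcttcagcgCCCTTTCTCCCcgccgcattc
SNHG18, chr5:9546190-9546219, plus strand: gccgcgccgCCTCCTCCTCCtcctcctccc
SNHG3, chr1:28505933-28505962, plus strand: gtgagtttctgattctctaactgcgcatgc
SNHG33, chr3:183447598-183447627, plus strand: gaggcttttacaccgaacggaggtgatgtg
EPB41L4A-AS1, chr5:112160516-112160545, plus strand: tcatgaattctgtcgggtcccaaaatacgt
SNHG20, chr17:77088633-77088662, plus strand: ttccggccggaagttgctgacggagctact
SNHG17, chr20:38435309-38435338, minus strand: gtgtggcctcagtCCTTCgccgtccctcgc
DANCR, chr4:52712384-52712413, plus strand: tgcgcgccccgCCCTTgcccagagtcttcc

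The run was present in 8 of the 16 tested snoRNA hosts with a listed start sequence, beside 25.2% of the 27305 genes of the table. It was present in 4 of the 8 hosts called higher between the precursors, in both called lower, and in 2 of the 6 listed that were not called. A match is a description of these letters only.

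Some of the small RNAs inside the hosts had probes of their own. None was listed for SNHG18, SNHG20 or SNHG33, and those tested for the other 7 called snoRNA hosts were not themselves called by limma. Of 52 small RNAs listed for these hosts, 35 belonged to hosts on the array and passed the filter. In each comparison 1 of the 35 was called, lower against the control with either precursor (beside 7.99% and 2.03% of all genes) and higher between the precursors (beside 9.18%). It was SCARNA13, a Cajal body RNA hosted by SNHG10, whose own probes did not pass the filter. At an unadjusted p under 0.05 there were 10, 8 and 10 of the 35, beside 39.5%, 24.3% and 48.2% of all genes. SCARNA13 was at -0.15 and -0.07 with miR-205-5p, -1.46 and -1.38 with miR-214-3p and 1.61 and 1.51 in the control. It was lower than the control by -1.67 (adjusted p = 0.00799) and -2.98 (adjusted p = 0.0250) and higher with miR-205-5p than with miR-214-3p by 1.31 (adjusted p = 0.00532). SNORA71A to SNORA71D, the near-identical snoRNAs of SNHG17, gave 0.21, 0.61, 0.59 and 0.37 for miR-205-5p against the control, where the host was at -1.66. SNORA26 gave 0.08 where its host DANCR was at -2.34. For SNHG3, SNORA73A and SNORA73B gave 0.33 and 0.39 between the precursors, where the host was at 1.48. The labelling kit named in the labels primes on poly(A) tails, which mature snoRNAs lack, and signals of RNAs that overlap their host cannot be told apart from it.

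**Figure D4:**
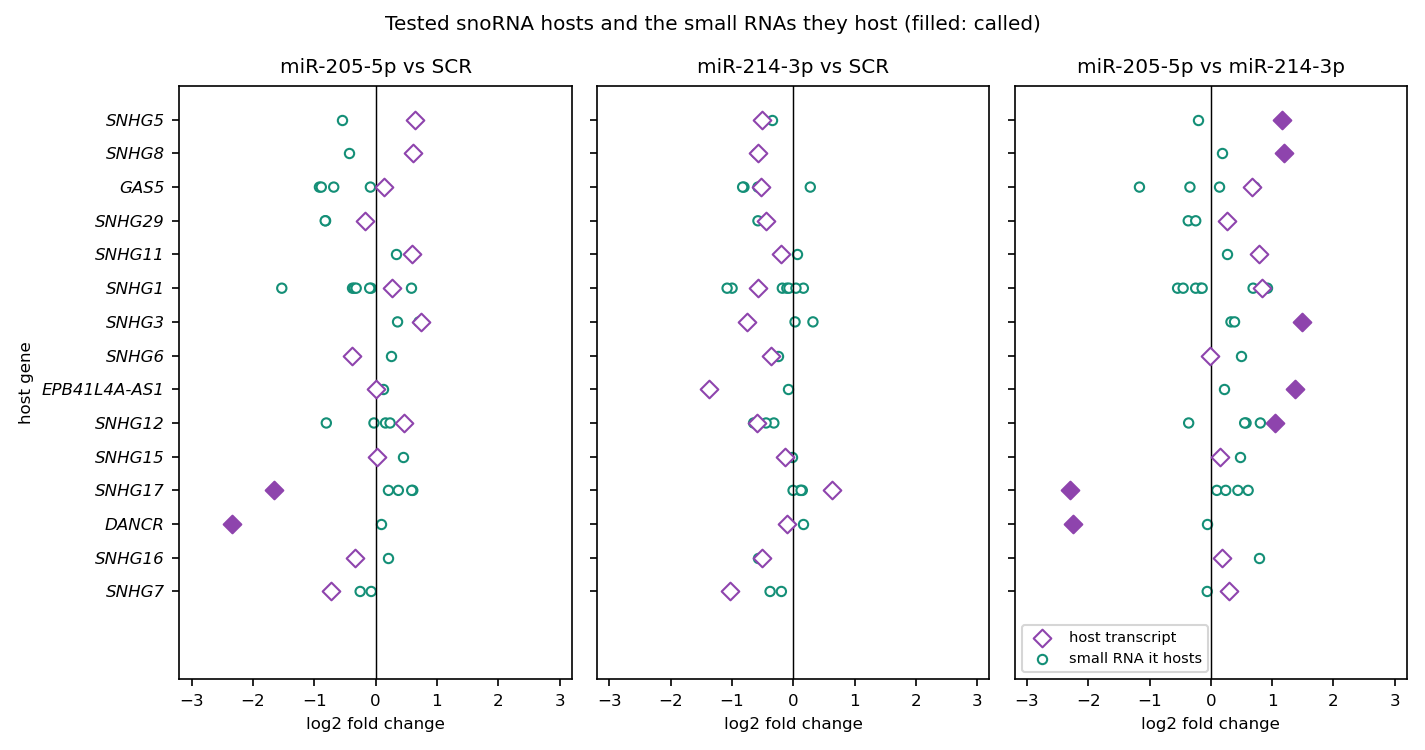
Log2 fold change (horizontal axis) of 15 tested snoRNA hosts (diamonds) and of the small RNAs in their introns that passed the filter (circles) in the 3 comparisons (panels), filled where called. None of the circles is filled, and for SNHG17 and DANCR in the left and right panels the circles lie between -0.07 and 0.61, right of the filled diamonds.

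Among the miRNA hosts, 2 were called. Of the 13, 1 was lower and 1 higher with miR-205-5p than in the control, beside 7.99% and 4.78% of all genes. With miR-214-3p 1 was lower, beside 2.03% of all genes. MIR3681HG, host of the miR-3681 hairpin shown above, was at 0.81 and 0.93 with miR-205-5p, 0.92 and 0.76 with miR-214-3p and 1.82 and 2.01 in the control. Both precursors lay below the control without overlap, by -1.04 ± 0.17 (adjusted p = 0.0169) and -1.07 ± 0.17 (adjusted p = 0.0443), and the precursors differed by 0.03 (95% interval -0.39 to 0.45). The miR-214-3p call was lost with the replicate number as a block (adjusted p = 0.0938) and without any single array, either by the adjusted p (0.0582 to 0.345) or, without SCR replicate 2, by the fold (-0.97). The miR-205-5p call was lost without any precursor array (0.062 to 0.0798) or SCR replicate 2 (-0.95), and by the fold with quantile normalization (-0.98) or the authors' table (-0.97). With normexp both were under 2-fold, at -0.81 and -0.80, and without a filter on dim probes neither was called (adjusted p = 0.0816 and 0.203). MIR503HG, host of miR-503, was at 4.52 and 4.45 with miR-205-5p, 4.13 and 4.23 with miR-214-3p and 3.68 and 3.23 in the control. It rose by 1.03 ± 0.20 with miR-205-5p (adjusted p = 0.0261), and the miR-214-3p value of 0.72 was not called (adjusted p = 0.122). Its second, dimmer probe gave 0.49 and 0.68. The call was lost without any precursor array (adjusted p from 0.08 to 0.106) and without SCR replicate 2, where the rise was 0.81. It was also lost with normexp (0.70), median centring (0.64) and the median of the centred probes (0.76).

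The other miRNA hosts were not called at their brightest probe. For MIR9-2HG the computed difference of miR-205-5p from the control was -1.60, past the fold limit but with a limma adjusted p of 0.0632. It was well above background on the SCR arrays only, so that size is not measured. MIR4435-2HG was at 8.77 and 8.67 with miR-205-5p, 8.06 and 8.03 with miR-214-3p and 8.15 and 7.97 in the control, 0.66 above the control with miR-205-5p (adjusted p = 0.0421), while a second probe was called higher at 1.28. MIR100HG, host of miR-100, let-7a-2 and miR-125b-1, was at 3.68 and 3.74 with miR-205-5p, 2.97 and 2.88 with miR-214-3p and 3.67 and 3.73 in the control. Its precursor difference was 0.78 (adjusted p = 0.017), under 2-fold. H19, the imprinted host of miR-675, was well above background on 3 arrays and gave no call, with values from -2.21 to -1.04.

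Of the 8 lncRNAs that act as scaffolds or regulators, NEAT1 was the one called at its brightest probe. CYTOR, a near-identical copy of MIR4435-2HG for which signals are uncertain, was at 5.64 and 5.40, 5.24 and 5.32, and 5.32 and 2.54 with miR-205-5p, miR-214-3p and in the control. The last value, SCR replicate 2, stood apart. CYTOR was 1.59 above the control with miR-205-5p (adjusted p = 0.233) and 1.35 with miR-214-3p (adjusted p = 0.407). Both values are uncertain: without SCR replicate 2 they were 0.20 and -0.04, whereas without SCR replicate 1 they were 2.98 (adjusted p = 0.00671) and 2.73 (adjusted p = 0.0532). MALAT1, a nuclear speckle RNA, was at 4.93 and 4.99 with miR-205-5p, 5.28 and 5.34 with miR-214-3p and 5.47 and 5.25 in the control, with no call at its brightest probe. Its 8 probes ran from -1.59 to 1.62 between the precursors, with 2 called lower and 1 higher, and 1 was called lower than the control at -1.40. NORAD, which binds Pumilio proteins, was at 3.75 and 3.57 with miR-205-5p, 4.71 and 4.66 with miR-214-3p and 4.07 and 4.91 in the control. Its precursor difference of -1.02 stood at the limit, with an adjusted p of 0.0500379, and was called when outlier spots were used for the 11 probes with no other spot (adjusted p = 0.0499794). The choice to leave those probes out was made after results were seen. The other 2 NORAD probes gave 0.02 and 0.63.

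MEG3, an imprinted lncRNA, gave 0.15 against the control with either precursor. LINC-PINT (0.31), PVT1 (0.53) and HOTAIR (0.67), the last a lncRNA of the HOXC cluster, were not called between the precursors, with adjusted p-values of 0.279, 0.306 and 0.0871. PVT1 differed by 1 log2 unit between its SCR arrays, 2.08 and 0.97, and 2 of its 9 probes were called lower between the precursors, 1 of them also against the control (-1.27). TUG1 and MIR205HG, the host of miR-205 itself, had no probe matched and were not analysed here. The 24 genes with probes that did not pass the filter were MIR124-1HG, MIR124-2HG, MIR155HG, MIR2052HG, MIR31HG, MIR3663HG, MIR3936HG, MIR3976HG, MIR4290HG, MIR4453HG, MIR4458HG, MIR4500HG, MIR600HG, MIR646HG, MIR663AHG, MIR7-3HG, MIR9-3HG, MIR924HG, MIR99AHG, SNHG4, SNHG10, SNHG21, SNHG27 and SNHG31. The remaining tested hosts (MIR550A3HG, MIR22HG, MIR23AHG, MIRLET7BHG, MIR17HG, MIR570HG, MIR181A1HG and MIR9-2HG) were not called in any comparison.

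Genes that act on or beside these RNAs were followed in lists chosen by name. Of 21 NMD and exon junction factors, 19 were tested. SMG6, the NMD endonuclease, was at 0.75 and 0.41 with miR-205-5p, 2.40 and 2.55 with miR-214-3p and 1.88 and 2.16 in the control, and SMG9, a subunit of the SMG1 kinase complex, was lower with miR-205-5p by 1.07 on the log2 scale. Both were called lower than in the control and than with miR-214-3p (-1.90 and -1.85), and 2 of 19 is near the 7.99% and 11.3% of all genes called lower in these comparisons. EIF4A3, the helicase of the exon junction complex, was at 7.26 and 7.06 with miR-205-5p, 5.74 and 5.27 with miR-214-3p and 6.97 and 6.74 in the control. It was called lower with miR-214-3p at -1.35 (1 of 19, beside 2.03% of all genes). Between the precursors it was called higher at 1.66 (1 of 19, beside 9.18% of all genes). The release factor ETF1 was called higher with miR-205-5p than in the control at 1.24 (1 of 19, beside 4.78% of all genes). The other 15 were not called, and the median of the list was -0.03 against the control with miR-205-5p and 0.10 with miR-214-3p. Whether these factors had a part in the host values was not tested.

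Of the 20 protein-coding snoRNA hosts outside the ribosomal proteins, none was called higher between the precursors, beside 9.18% of all genes, and 3 were called lower, a share near the 11.3% of all genes. NOP56, a core protein of C/D snoRNPs, was at 2.36 and 2.49 with miR-205-5p, 5.78 and 5.76 with miR-214-3p and 4.59 and 5.73 in the control. It was lower with miR-205-5p by -2.73 against the control and by -3.35 against miR-214-3p. RACK1, a protein of the small ribosomal subunit, was lower by -2.23 and -2.65, and the chaperone HSPA8 by -2.01 against miR-214-3p alone. The other 17 were not called, and the median between the precursors was 0.11, beside 0.12 over all genes. Over the lncRNAs that host snoRNAs it was 0.79 at the brightest probe and 0.19 with the median of the centred probes. Of 14 paraspeckle proteins only TAF15 was called, at 1.08 between the precursors, beside 9.18% of all genes called higher. None of 15 tested lncRNAs outside the family was called by limma in any comparison, with 4 at an unadjusted p under 0.05 in each, a share below that over all genes between the precursors and with miR-205-5p (48.2% and 39.5%) and near it with miR-214-3p (24.3%). Of 11 tested partners of single members, only DLK1, the imprinted neighbour of MEG3, was called, beside 9.18% of all genes called higher in that comparison. It was at least 3.05-fold higher with miR-205-5p than with miR-214-3p, where it was not well above background.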

How the data were processed

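RNA of 6 transfected MDA-MB-231 samples was hybridised to Agilent SurePrint G3 Human GE arrays (1 slide). The authors deposited scanner output of Agilent Feature Extraction 11.0, whose processed signal is a background-subtracted intensity, and their own log2 values for these arrays, used as an alternative (lowest correlation with log2 processed signal 0.997). Here control and outlier spots were left out (11 of 50599 probes had no other spot), each probe's spots were averaged, and values were centred on each array's 75th percentile. A probe was kept when well above background on both arrays of a group (18464 probes). limma 3.58.1 in R 4.3.3 was fitted to all 6 arrays, and calls needed an adjusted p under 0.05 and a 2-fold difference. Symbols came from accessions through RefSeq (GRCh38.p14), another build than the array design, so the table gave names only. The script was tested on simulated data. Precision is limited by 2 arrays per group. By rule, values were given for genes named singly in the symbol rule, all called members, the 10 brightest members and MIR205HG. Values of SNHG6, SNHG7, SNHG15, SNHG16, MIR100HG and MIR9-2HG are given outside it and were chosen after they were seen. The members and lists were chosen with earlier results of these data known.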

Additional observations from a re-analysis of the deposited data

Results flagged for a closer look

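For 11 members the effects of the precursors against the same control differed, by a limma test of miR-205-5p against miR-214-3p with adjusted p under 0.05 and a 2-fold limit. The log2 difference was 1.16 for SNHG5, 1.19 for SNHG8, 1.35 for SNHG33, 1.48 for SNHG3, 1.37 for EPB41L4A-AS1 and 1.05 for SNHG12. It was 1.04 for NEAT1, 1.48 for SNHG18 and 1.09 for SNHG20. It was -2.29 for SNHG17 and -2.24 for DANCR. For SNHG5, SNHG8, SNHG33, SNHG3, SNHG12, NEAT1 and SNHG20 the value against the control was above 0 with miR-205-5p and below 0 with miR-214-3p, and for SNHG17 it was the other way round. EPB41L4A-AS1 and DANCR were below 0 with both precursors and SNHG18 above 0 with both.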

How the results depend on the processing

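With 2 arrays per group, the counts of member genes called moved with the setting. For miR-205-5p against SCR, 3 were called lower in the report. The count was 5 with median scaling and 4 with unadjusted p or the median of a gene's probes, centred or not. It was 2 with normexp or the unadjusted t-test and 1 with only the arrays compared. It was 0 with no filter on dim probes or with the methods' t-test after adjustment. The 2 called higher became 0 with normexp, no filter, only the arrays compared or the adjusted t-test. They became 1 with median scaling, the unadjusted t-test or the median of centred probes. They became 3 with the stricter filter (well above background on all arrays), an intensity trend or unadjusted p, and 6 with no fold limit. For miR-214-3p against SCR, the 1 called lower became 2 with normexp, quantile, median scaling, the percentile over detected probes, the authors' table, the stricter filter, an intensity trend, unadjusted p, the unadjusted t-test or the median of a gene's probes (the levels as they are, or each probe centred on its own mean, a setting chosen after seeing the data), and 0 with no filter, only the arrays compared or the adjusted t-test, and 0 to 1 when single arrays were left out; with normexp the 2 were EPB41L4A-AS1 and SNHG3, not MIR3681HG, and the 0 called higher stayed 0 throughout. Between the precursors, the 2 called lower became 1 with no filter and 4 with the median of probe levels. They became 3 with median scaling, the stricter filter, only the arrays compared, an intensity trend or unadjusted p. The count was also 3 with either t-test, the median of centred probes or outlier spots used. The 9 called higher became 5 with normexp, quantile or the authors' table and 3 with median scaling or no filter. They became 8 with the stricter filter, only the arrays compared or the unadjusted t-test. They became 6 with either median of probes or the adjusted t-test, and 13 with no fold limit. SNHG20 reversed to a computed -1.85 with the median of its centred probes and -2.08 with that of the levels, which sets different probes against each other; neither size is measured because the dim probes behind it were not well above background on either miR-205-5p array (at least 1.30-fold lower at the one called). With the replicate number as a block, the 1 lower call for miR-214-3p became 0 and no other member call changed. Deviations of same-numbered arrays correlated at 0.00819 (miR-205-5p with SCR), -0.0514 (miR-214-3p with SCR) and 0.109 (miR-205-5p with miR-214-3p). The labels do not say whether same-numbered samples were handled together, and these values cannot settle it. The causes were not tested. The shares of all genes called under these settings are not given here, so a changed count may be shared by the whole array. A slide block was not run because all arrays lay on 1 slide.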
